A study of Homo sapiens with 16 samples.

Results

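Oxidative phosphorylation is carried out by 5 protein complexes of the mitochondrial inner membrane, and the promoters described here are those of the nuclear genes that encode their subunits. They were chosen by gene symbol alone: NDUFA, NDUFB, NDUFC, NDUFS and NDUFV genes (complex I), SDHA to SDHD (complex II), UQCR genes (complex III), COX4 to COX8 genes (complex IV) and ATP5 genes (ATP synthase), without the NDUFAF assembly factors. This gave 84 promoters of the 21857 in the tables: 38 of complex I, 4 of complex II, 9 of complex III, 16 of complex IV and 17 of ATP synthase. The complex was assigned by the start of the symbol and not by where the protein sits, so NDUFA4 and NDUFA4L2 are counted under complex I. The symbols also took in the pseudogenes ATP5EP2 and UQCRBP1, the antisense gene NDUFB2-AS1, the readthrough genes NDUFC2-KCTD14 and ATP5J2-PTCD1, the subunit-like genes ATP5S, ATP5SL and COX7A2L, and 7 isoform genes of other tissues or of hypoxia.

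Electrons from NADH enter the respiratory chain at complex I and those from succinate at complex II, pass through complex III to complex IV, and the proton gradient made on the way drives ATP synthase. Most subunits are nuclear genes transcribed in nearly all cells from broad, GC-rich promoters, and NRF1 and the ETS factor GABP are known as activators of many of them. B cells activated by bacterial products raise their mitochondrial ATP production as well as their glycolysis.

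In this study the human B-lymphoblastoid cell line GM12878, an established line made by Epstein-Barr virus transformation, was stimulated with heat-killed Salmonella typhimurium (HKST) for 20, 40 or 60 min or left untreated. Cross-linked nuclei were cut with a light (20 U) or a heavy (200 U) amount of MNase, a nuclease that cuts the DNA between nucleosomes, and mononucleosomal fragments of the 2 kb around transcription start sites (TSSs) were captured and sequenced. The question was how nucleosome occupancy and MNase sensitivity at promoters change in the first hour of an immune stimulus. Each of the 8 tables is 1 time and 1 digestion level with 2 replicates pooled, so no spread between replicates could be measured, no p-value was calculated, and a difference between times cannot be told apart from a difference in digestion between tubes.

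The signal (rpm) counts fragment centers in windows of 60 bp, relative to table depth, at every 10 bp. The tables rested on 9.43 to 10.5 M light fragments, and the heavy ones on 5.12 M (untreated), 4.12 M (20 min), 3.27 M (40 min) and 7.04 M (60 min). Sensitivity is log2 of light over heavy rpm after adding 0.122 rpm to each. It is above 0 where a fragment was seen more in the light digest, as for a nucleosome that heavy digestion removes (MNase-sensitive). All 84 promoters were complete in the 40 and 60 min tables, 76 also in the untreated heavy table and 9 in all 8 tables, those 9 being on chromosomes 1, 10 and 11. As a check of the label, the depletion of nucleosomes at the TSS was compared between marker lists (NFR depth, defined with the profiles, where lower is deeper). Its median was -1.81 at the B cell marker promoters (n = 6, from -2.52 at CD74 to -0.92 at MS4A1), near the -1.87 of all promoters. At T cell markers the median was -0.23 (n = 5, from -1.13 at CD3E to 0.62 at CD2). Liver markers ran from -0.92 to 0.15 (n = 5). The B and T cell lists overlapped.

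The sequences of 4 promoters and of 4 short sites are shown because the named changes fall on them and because they hold the motifs that were counted over all members. All are from GRCh37/hg19, written in the direction of transcription, and positions count from 1 at the TSS with -1 just before it. Capitals mark matches to 1 of 5 motifs, each searched on both strands. The letters of the SP1 motif were GGGCGG and those of the ETS/GABP motif CCGGAAG, while TATAAA was taken for the TATA box and CCAAT for the box of that name. The NRF1 motif, with any base in the sixth place, is the capital run in the UQCR10 and ATP5C1 sites. A match says that the letters are there and not that a factor was bound. The first 4 are the 200 bases before the TSS, the stretch over which the -1 values are averaged. They are ATP5B (chr12:57039853-57040052, minus strand), NDUFA5 (chr7:123197959-123198158, minus strand), SDHC (chr1:161283966-161284165, plus strand) and UQCRC2 (chr16:21964409-21964608, plus strand).
ATP5B: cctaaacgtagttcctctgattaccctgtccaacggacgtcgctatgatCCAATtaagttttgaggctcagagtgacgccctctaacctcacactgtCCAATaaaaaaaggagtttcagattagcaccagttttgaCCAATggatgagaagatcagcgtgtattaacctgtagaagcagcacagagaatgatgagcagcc
NDUFA5: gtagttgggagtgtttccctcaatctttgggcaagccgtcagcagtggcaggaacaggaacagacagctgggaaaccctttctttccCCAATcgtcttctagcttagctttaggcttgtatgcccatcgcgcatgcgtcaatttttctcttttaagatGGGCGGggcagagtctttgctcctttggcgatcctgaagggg
SDHC: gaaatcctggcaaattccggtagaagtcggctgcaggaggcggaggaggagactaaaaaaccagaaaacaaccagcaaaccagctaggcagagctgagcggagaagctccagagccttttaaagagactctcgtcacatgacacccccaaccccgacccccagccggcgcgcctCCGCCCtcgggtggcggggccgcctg
UQCRC2: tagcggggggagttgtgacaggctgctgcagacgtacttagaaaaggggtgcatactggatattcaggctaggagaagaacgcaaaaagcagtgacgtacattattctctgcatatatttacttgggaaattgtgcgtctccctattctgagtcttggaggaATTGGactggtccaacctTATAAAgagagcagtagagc
The ATP5B window held 3 CCAAT boxes on the coding strand. The 30-base stretches that follow show the NRF1 matches of UQCR10 (chr22:30163340-30163369), which spans the TSS from -8 to 2, and of ATP5C1 (chr10:7830108-7830137), which lies downstream of the TSS from 26 to 35. The last pair are the ETS/GABP matches of NDUFS3, from -38 to -32 (chr11:47600513-47600542) and from -19 to -13 (chr11:47600532-47600561). All 4 stretches are read on the plus strand.
UQCR10: gtcggccccaGCGCAGGCGCggtggcgcga
ATP5C1: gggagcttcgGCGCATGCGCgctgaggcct
NDUFS3 upstream match: cggaacctccgCTTCCGGctccacgtccgc
NDUFS3 downstream match: tccacgtccgcCCGGAAGaagatctgctgc

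Over the 300 bases from -250 to +50, an NRF1 match was present in 18 of the 84 members (21.4%), against 6.9% of all 21838 promoters with a sequence. ETS/GABP matches were found in 15 members (17.9%, against 11.6% of all promoters), and YY1 matches (AAGATGGC) in 8 members (9.52%, against 2.91%). SP1, CCAAT and TATA matches were about as frequent in the members as in all promoters (52.4% against 52.9%, 34.5% against 35.4% and 11.9% against 10.7%), and the median GC content was 60.3% in the members and 60.7% in all promoters. Head-to-head arrangement was also more frequent: 18 members (21.4%) had another TSS on the opposite strand within 1000 bp upstream, against 9.58% of all promoters. Close pairs were NDUFB11 with RBM10 (8 bp), NDUFA2 with IK (14 bp), COX4I1 with EMC8 (25 bp) and SDHD with TIMM8B (26 bp). The 2 kb of 28 members overlaps another promoter of the tables, so their fragments are shared with that promoter. Among members described with their changes, these include NDUFS6 (with MRPL36, a mitochondrial ribosomal protein gene), NDUFS3 (KBTBD4), NDUFB3 (FAM126B), NDUFA11 (VMAC), NDUFA2 (IK), SDHA (CCDC127), SDHD (TIMM8B), UQCR10 (ZMAT5), UQCRQ (GDF9), UQCRH (LRRC41), ATP5B (SNORD59A), ATP5C1 (KIN) and ATP5F1 (WDR77).

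In untreated cells, the OXPHOS promoters had a deep nucleosome-free region (NFR) between clear flanking nucleosomes. The average of light plus heavy over the 76 members with untreated data fell to 0.516 rpm at 10 bp, against a lowest value of 1.17 rpm at -80 bp over all 16260 promoters. The +1 nucleosome peaked at 3.45 rpm in the members and 2.34 rpm in all promoters, both at 150 bp, and the -1 nucleosome at 3.04 rpm (-200 bp) in the members and 2.32 rpm (-210 bp) in all promoters. NFR depth, which is log2 of the total signal from -100 to 50 bp over that of the whole 2 kb, had a median of -2.36 in the members (n = 75, 72 below 0) and of -1.87 in all promoters (n = 16026). It was lowest at complex II (-3.57, n = 4) and complex I (-2.91), followed by ATP synthase (-2.48), complex III (-2.36) and complex IV (-1.20). The 3 members above 0, which means no dip at the deposited TSS, included NDUFS7 and the isoform gene COX7B2 (0.44).

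**Figure D1:**
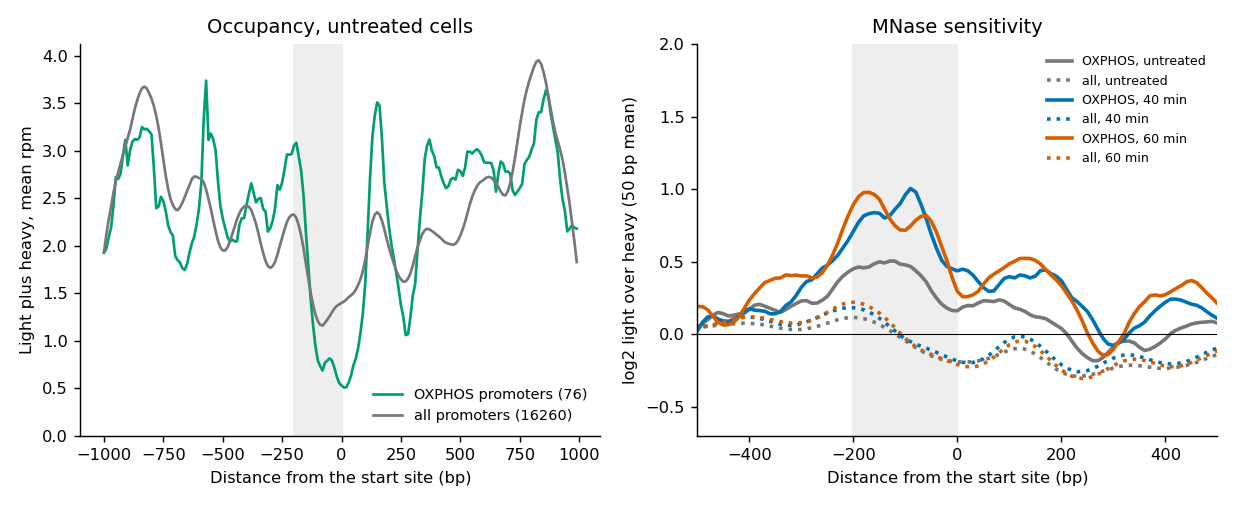
Left, mean light plus heavy rpm in untreated cells against distance from the TSS (bp) for the 76 OXPHOS promoters and for all 16260 promoters with untreated data. Right, log2 of light over heavy of the mean profiles (50 bp running mean) in untreated cells and at 40 and 60 min of HKST, solid for OXPHOS and dotted for all promoters; the grey band marks -200 to 0 bp, where the OXPHOS lines at 40 and 60 min lie above the untreated line and all 3 lie above the dotted lines.

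The -1 region (-200 to 0 bp) of these promoters was MNase-sensitive before any stimulus. Its sensitivity had a median of 0.43 in the members (quartiles -0.17 and 1.00, n = 71, 48 above 0) and of 0.12 in all promoters (n = 14546). A level of 1 or more, a 2-fold excess in light over heavy, was reached by 18 members, or 25.4%, against 13% of all promoters, and a level of -1 or less by 4 members, or 5.63%, against 8.92%. By complex the untreated medians were 0.34 for complex I, 0.29 for complex II, 0.43 for complex III, 0.60 for complex IV and 0.08 for ATP synthase. The members also had more light than heavy signal over the whole 2 kb (median 0.22, against 0.07 in all promoters); after that was subtracted promoter by promoter, the -1 median was 0.19, against 0.02. Across the 71 members the -1 level was lower at higher GC content (Pearson's r = -0.54, Spearman's rho = -0.57), which describes promoters that share the same 2 tables. In all promoters Pearson's r was -0.40.

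The most and least sensitive members with at least 20 fragments show the range in untreated cells. NDUFA9, an accessory subunit at the junction of the matrix and membrane arms of complex I, had 0.911 rpm light and 0.0879 rpm heavy (level 2.30), and NDUFA2, an accessory subunit of the matrix arm, had 1.59 and 0.234 rpm (2.26). UQCRC2, a core protein of complex III whose promoter is printed above, had 0.855 and 0.165 rpm (1.77). These were the most sensitive, and all 3 stayed above 1 at 40 and 60 min, with levels of 2.35 and 2.71 for NDUFA9, 1.45 and 1.70 for NDUFA2 and 2.78 and 1.39 for UQCRC2. Their heavy fragments were few. In untreated cells and at 40 and 60 min the rounded counts were 1, 1 and 0 for NDUFA9, 4, 4 and 10 for NDUFA2 and 2, 0 and 5 for UQCRC2. Levels at the lowest of these counts depend on the added 0.122 rpm. At the other end, ATP5F1, the peripheral stalk b subunit of ATP synthase, had 0.397 rpm light and 1.23 rpm heavy (-1.38), COX4I2, the lung and hypoxia isoform of COX4, had 0.736 and 1.71 rpm (-1.09), and NDUFB11, a membrane-arm subunit of complex I, had 0.751 and 1.54 rpm (-0.93).

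After HKST the -1 region of the OXPHOS promoters was more MNase-sensitive than before at each time, by more than that of promoters at large. From a median level of 0.43 without HKST, the members had 0.90 at 40 min (n = 80) and 0.91 at 60 min (n = 79), while over all promoters these levels were 0.12, 0.18 and 0.15. A level of 1 or more was reached by 37 members at 40 min (46.2%, against 18.4% of all promoters) and 36 at 60 min (45.6%, against 18.6%), and a level of -1 or less by 3 at each time (3.75%, against 7.95%, and 3.8%, against 10.4%). Promoter by promoter, the change against untreated cells had a median of 0.42 at 40 min (quartiles -0.01 and 1.09, 54 of 73 above 0) and of 0.41 at 60 min (0.04 and 1.05, 56 of 73 above 0). Over all promoters the medians were 0.11 (n = 14862) and 0.08 (n = 14909), so that the members lay 0.31 and 0.33 above the general shift. At 20 min only 9 members could be compared. Their median change was 0.66, with 8 of 9 above 0, against 0.14 over 2591 promoters. All of these comparisons use the same untreated tables, so that they are not independent of each other.

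Both digests moved. In the 73 members the light signal was higher after HKST, with a median log2 change of 0.21 at 40 min and 0.16 at 60 min, and the heavy signal was lower (-0.32 and -0.25). Over all promoters the light changes were 0.03 and 0.00 and the heavy changes -0.06 and -0.07. Averaged over those 73 members, the -1 region had 0.949 rpm light and 0.502 rpm heavy at 40 min, 0.991 and 0.491 rpm at 60 min, and 0.862 and 0.615 rpm in untreated cells. Over all promoters these means were 0.840 and 0.824 rpm at 40 min, 0.823 and 0.799 rpm at 60 min, and about 0.835 and 0.845 rpm in untreated cells. Heavy counts were low: among the members with untreated data the median promoter had 2 heavy fragments in the -1 region at 40 min, 5 at 60 min and 4 in untreated cells, and 19, 13 and 8 of 75 had none. Where windows with no fragment are set to 3 fragments, the limit that a count of 0 allows, the median change at 40 min is 0.21 in the members and -0.03 in all promoters, and at 60 min 0.41 and 0.10.

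A change of 1 or more on the log2 scale was called. At 40 min 22 of 73 members (30.1%) were called higher, against 12.4% of all promoters, and 2 (2.74%) lower, against 6.07%. At 60 min 20 members (27.4%) were called higher, against 10.4%, and 2 (2.74%) lower, against 4.57%. Among members with at least 20 fragments over the 4 tables, 13 of 47 were higher at 40 min (27.7%, against 11% of all such promoters) and 14 of 52 at 60 min (26.9%, against 9.18%). The counts depend on the pseudocount: with 0.5 of the mean value in place of 0.1, 3 members were higher at 40 min (4.11%, against 0.989% of all promoters) and 2 at 60 min (2.74%, against 0.563%). They also depend on the window, whose outer edge is at the -1 peak (-200 bp): from -300 to -100 bp, 13 members were higher at 40 min (17.8%, against 11.7%) and 16 at 60 min (21.9%, against 9.15%). With the median of all promoters set to 0, 17 were higher (23.3%, against 10.1%) and 3 lower (4.11%, against 7.84%) at 40 min, and 17 higher (23.3%, against 8.84%) and 2 lower (2.74%, against 5.96%) at 60 min. By the stricter rule, that the exact 95% interval of the fragment counts excludes 0, 3 members were higher at 40 min (4.11%, against 1.56%), 1 was lower (1.37%, against 1.35%), 6 were higher at 60 min (8.22%, against 2.2%) and none was lower (against 2.05%). These intervals cover counting error only, and PCR copies are not independent molecules.

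**Figure D2:**
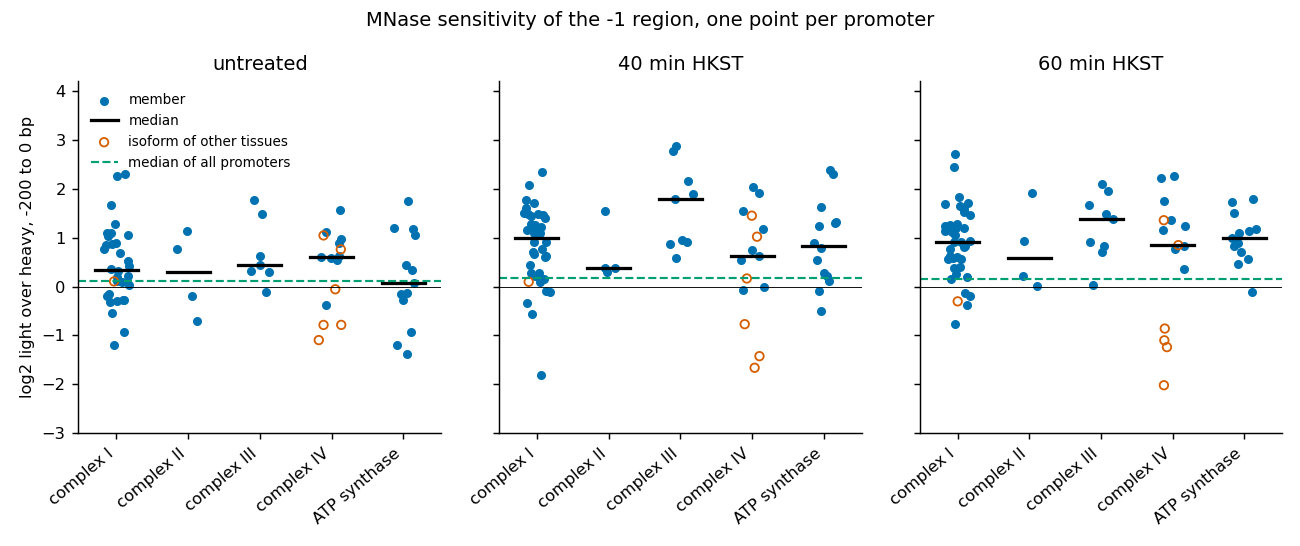
Sensitivity of the -1 region (log2 of light over heavy) for each OXPHOS promoter by complex, in untreated cells and at 40 and 60 min of HKST; black bars are medians, open circles the isoforms of other tissues, and the dashed line the median of all promoters. At 40 and 60 min the medians of complexes I and III and of ATP synthase lie between 0.84 and 1.78, against 0.08 to 0.43 in untreated cells.

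The largest group of promoters, complex I, had a median change of 0.38 at 40 min (29 of 34 above 0) and 0.43 at 60 min (28 of 34), and 10 of 34 were called higher at each time (29.4%, against 12.4% of all promoters at 40 min and 10.4% at 60 min). Of its core subunits, NDUFS3, which belongs to the matrix arm and has the 2 ETS/GABP matches printed above, had 3.27, 3.12, 4.17 and 3.20 rpm light in untreated cells and at 20, 40 and 60 min, and 2.80, 1.65, 1.42 and 1.65 rpm heavy. Its change was 1.26 at 40 min (0.42 to 2.40) and 0.69 at 60 min (-0.03 to 1.50), with the highest light and the lowest heavy value at 40 min. NDUFV2, an iron-sulfur core subunit of the NADH-oxidising tip, differed at 60 min, with 0.311, 0.334 and 0.613 rpm light and 0.508, 0.451 and 0.199 rpm heavy in untreated cells and at 40 and 60 min. Its change was 0.21 at 40 min and 1.74 at 60 min (0.16 to 4.58), an interval that rests on few fragments.

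Accessory subunits of complex I went both ways. NDUFA5, a matrix-arm subunit, had 2.45, 1.90 and 2.57 rpm light and 1.14, 0.711 and 0.373 rpm heavy in untreated cells and at 40 and 60 min, and its change was 0.25 at 40 min and 1.42 at 60 min (0.38 to 3.08). NDUFB3, of the membrane arm, had 0.958, 1.60 and 1.32 rpm light and 1.07, 0.802 and 0.404 rpm heavy, with changes of 1.05 and 1.60 (0.21 to 3.45 at 60 min). In both promoters the heavy signal was lowest at 60 min. NDUFA12, of the matrix arm, had changes of 1.38 and 0.82, both with intervals that include 0. NDUFS6, an accessory subunit with a zinc site, was the 1 member lower by the interval rule. It had 4.52, 3.51 and 3.57 rpm light and 2.12, 3.81 and 2.70 rpm heavy, with changes of -1.17 at 40 min (-2.01 to -0.45) and -0.66 at 60 min (-1.41 to 0.04). NDUFA11, a membrane-arm subunit, had changes of -0.99 and -1.03 and NDUFA2 of -0.82 and -0.57. Their levels stayed above 0 throughout, from 0.63 to 2.26.

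Complex III, which passes electrons from ubiquinol to cytochrome c, had the highest median change of the complexes, 1.07 at 40 min (5 of 7 above 0) and 0.94 at 60 min (5 of 7). At 40 min 5 of 7 were called higher (71.4%, against 12.4% of all promoters) and at 60 min 3 of 7 (42.9%, against 10.4%). None was by the interval rule, which called 1.56% and 2.2% of all promoters. UQCR10, a small subunit whose NRF1 match spans the TSS, had 0.625, 0.765 and 1.11 rpm light and 0.432, 0 and 0.168 rpm heavy in untreated cells and at 40 and 60 min. Heavy fragments were absent at 40 min, so that its change of 2.43 there depends on the added 0.122 rpm (lower limit of the interval -0.03), and at 60 min it was 1.66 (-0.11 to 4.47). UQCRQ, a ubiquinone-binding small subunit, had 0.666, 0.986 and 1.11 rpm light and 0.514, 0.177 and 0.265 rpm heavy, with changes of 1.58 and 1.36. Light was higher and heavy lower in both promoters at both times. UQCRC2 had a change of 1.01 at 40 min, where its heavy count rounds to 0, and of -0.38 at 60 min. UQCRH, the hinge protein at cytochrome c1, had changes of -0.61 and -0.58.

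ATP synthase promoters had median changes of 0.88 at 40 min (9 of 13 above 0) and 0.72 at 60 min (11 of 13), with 5 (38.5%, against 12.4% of all promoters) and 4 of 13 (30.8%, against 10.4%) called higher. ATP5B, the catalytic beta subunit (now ATP5F1B), had 0.424, 0.512 and 0.424 rpm light and 0.537, 0 and 0.0426 rpm heavy in untreated cells and at 40 and 60 min. Light barely moved while the heavy signal over the printed 200 bases all but vanished, and the change was 2.65 at 40 min, where it depends on the added 0.122 rpm (lower limit 0.24, no upper limit), and 2.00 at 60 min (0.35 to 9.13). It was the only member past 0 by the interval rule at both times. ATP5C1, the gamma subunit of the rotating stalk (now ATP5F1C), had 0.0746, 0.182, 0.167 and 0.422 rpm light and 0.254, 0.091, 0 and 0.124 rpm heavy in untreated cells and at 20, 40 and 60 min, with few fragments in every table. Its changes were 1.45, 2.18 and 2.08, with an interval from 0.05 to 7.47 at 60 min. ATP5F1 had 0.397, 0.404, 0.628 and 0.614 rpm light and 1.23, 0.573, 0.934 and 0.671 rpm heavy. It was heavy-biased in untreated cells and near even at 60 min, with changes of 0.97, 0.88 and 1.27 whose intervals include 0. ATP5A1, the alpha subunit that pairs with beta, had 0.288, 0.255 and 0.293 rpm light and 0, 0 and 0.103 rpm heavy in untreated cells and at 40 and 60 min, so that its change of -0.87 at 60 min has no lower limit.

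**Figure D3:**
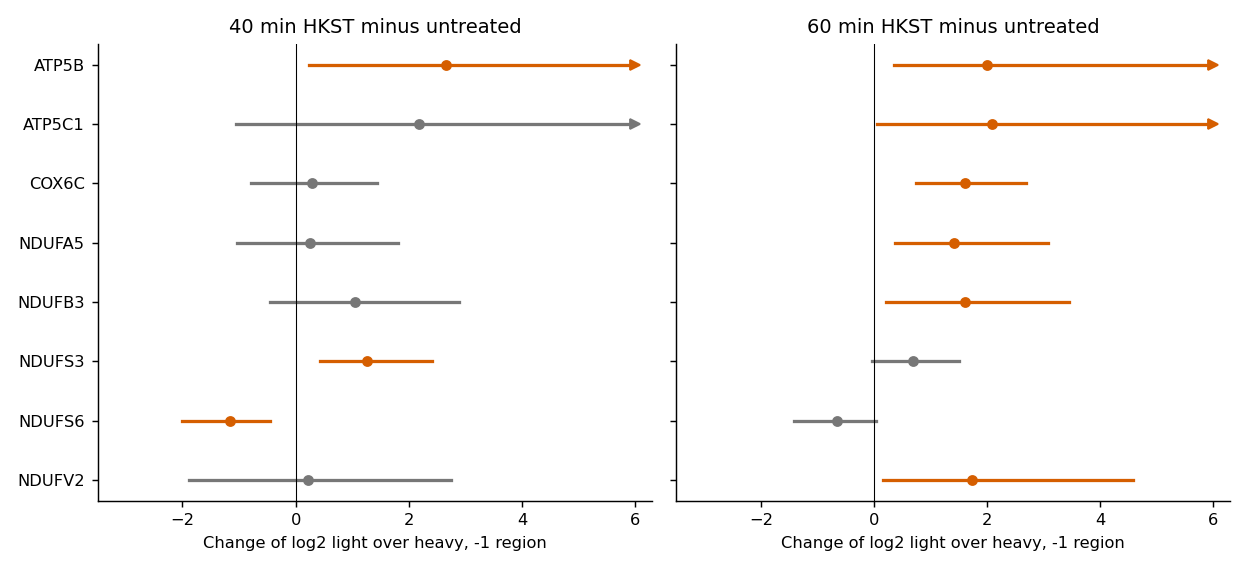
Change of log2 light over heavy in the -1 region with exact 95% counting intervals at 40 min (left) and 60 min (right) against untreated cells, for 8 members whose interval excludes 0 at either time (orange where it does, grey where it includes 0; arrows mark intervals that run past the axis). ATP5B is orange in both panels, and NDUFS6 is the only one of them to the left of 0.

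Succinate dehydrogenase, complex II, had all 4 genes measured and medians of 0.63 at 40 min and 0.49 at 60 min. SDHA, the flavoprotein that oxidises succinate, had 0.603, 0.757 and 0.444 rpm light and 1.06, 0.552 and 0.367 rpm heavy in untreated cells and at 40 and 60 min (changes 1.09 and 0.92), and the heavy signal was lower at each later time. SDHD, a membrane anchor, had 0.78, 1.17 and 0.867 rpm light and 0.91, 0.925 and 0.86 rpm heavy (0.50 and 0.20), with little change in heavy. SDHC, the other anchor, had 1.40, 1.07, 0.923 and 1.21 rpm light and 0.772, 0.364, 0.237 and 0.575 rpm heavy in untreated cells and at 20, 40 and 60 min. Both digests were lowest at 40 min, and its changes were 0.53, 0.77 and 0.17. SDHB, the iron-sulfur subunit, had 0.248, 0.807, 0.315 and 0.762 rpm light and 0.046, 0.285, 0.216 and 0.113 rpm heavy. Its levels of 1.14, 1.19, 0.37 and 1.91 rest on 1, 3, 2 and 2 heavy fragments, too few to show a direction.

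Complex IV had the lowest medians of the complexes, with changes of 0.01 at 40 min (8 of 15 above 0) and 0.09 at 60 min (8 of 15), and 1 of 15 (6.67%, against 12.4% of all promoters) and 3 of 15 (20%, against 10.4%) called higher. Of its 15 promoters, 6 belong to isoforms of other tissues; over the other 9 the medians were 0.29 (5 above 0) and 0.56 (6 above 0), with the same 1 (11.1%) and 3 (33.3%) called higher. COX6C, a small subunit, was past 0 by the interval rule at 60 min. It had 1.52, 1.46 and 2.64 rpm light and 2.00, 1.55 and 1.05 rpm heavy in untreated cells and at 40 and 60 min, with changes of 0.29 and 1.61 (0.75 to 2.68). Between 60 and 40 min its change was 1.31 (0.27 to 2.51), with light higher and heavy lower at 60 min. COX7C, another small subunit, had no heavy fragment at either time (0.376, 0.335 and 0.465 rpm light, and 0.218, 0 and 0 rpm heavy), and its changes of 1.35 and 1.72 have no upper limit and lower limits of -3.53 and -1.98.

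The 7 isoforms of other tissues had no common shift towards sensitivity. Their median change was -0.01 at 40 min (3 of 7 above 0) and -0.41 at 60 min (2 of 7), and without them the median over the members was 0.50 and 0.48. None was called higher (against 12.4% and 10.4% of all promoters), and COX8C, the testis isoform, was called lower at 60 min (1 of 7, 14.3%, against 4.57%) with 0.431, 0.388 and 0.211 rpm light and 0.831, 1.49 and 1.23 rpm heavy in untreated cells and at 40 and 60 min (changes -0.88 and -1.23, intervals including 0). Their median level, -0.06 before HKST, was 0.10 at 40 min and -0.86 at 60 min. COX4I2 had levels of -1.09, -1.42 and -1.10, COX6B2 (testis) of -0.78, -0.77 and -1.24 and COX7B2 of -0.06, 0.16 and -0.86. COX6A2 (heart and skeletal muscle) and COX7A1 (muscle) were the exceptions with 1.04, 1.02 and 1.36 and with 0.76, 1.45 and 0.85, and NDUFA4L2, known as a hypoxia-induced gene, had 0.10, 0.10 and -0.30. Their NFR depth had a median of -0.99, with COX4I2 the lowest.

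**Figure D4:**
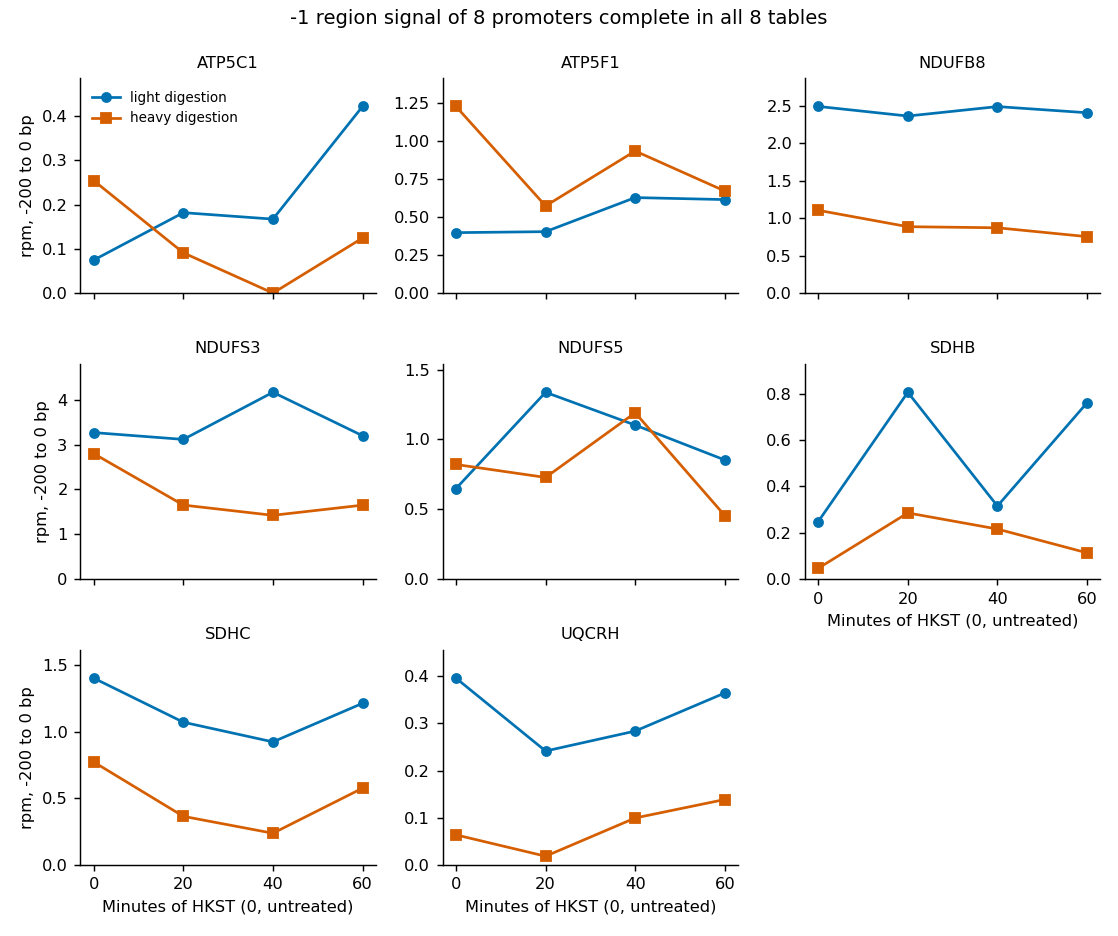
Mean rpm of the -1 region against minutes of HKST (0 is untreated) in the light and heavy digests, for 8 of the 9 OXPHOS promoters complete in all 8 tables; each point is 1 pooled table and the vertical scales differ. At 20 min heavy lies below its untreated value in every panel but that of SDHB.

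The 9 promoters measured at every time give the only view of 20 min. In untreated cells their median level was 0.52, and with HKST for 20, 40 and 60 min it was 1.19, 1.25 and 0.93, while that of all promoters in the 8 tables was 0.14, 0.25, 0.17 and 0.21. At 20 min 5 of 9 had a level of 1 or more (against 21.4% of all promoters) and none had -1 or less (against 7.87%), and the light signal had a median change of 0.02 and the heavy signal of -0.57 (0.04 and -0.09 over all promoters). NDUFS5, an accessory subunit of complex I, had 0.648, 1.34, 1.10 and 0.853 rpm light and 0.821, 0.728, 1.19 and 0.455 rpm heavy. It and ATP5C1 were the 2 of 9 called higher at 20 min (against 12.8%), with a change of 1.07 for NDUFS5, and none was called lower (against 5.67%). The 2 calls rest on the settings: 1 was left with the median of all promoters set to 0 (11.1%, against 9.34%), 1 of 8 with at least 20 fragments (12.5%, against 12%), 1 of 8 from -300 to -100 bp (12.5%, against 10.7%) and none with a pseudocount of 0.5 of the mean (against 0.965%). No interval at 20 min excluded 0 in either direction (against 1.85% higher and 1.81% lower). NDUFB8, a membrane-arm subunit of complex I, varied little: it had 2.49, 2.36, 2.49 and 2.41 rpm light and 1.10, 0.886, 0.871 and 0.753 rpm heavy, with changes of 0.21, 0.30 and 0.44. UQCRH was the only 1 below its untreated level at 20 min, with 0.396, 0.241, 0.284 and 0.365 rpm light and 0.0635, 0.0182, 0.0993 and 0.139 rpm heavy. Its heavy count rounds to 1 fragment in untreated cells and 0 at 20 min. The change of -0.11 at 20 min therefore depends on the added 0.122 rpm, without which light over heavy was higher at 20 min. Its interval runs from -6.51 with no upper limit.

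From 40 to 60 min the members as a group stayed level. The median change was -0.11 (36 above and 44 below 0 of 80), against -0.05 over 19850 promoters, and its sign turned under 3 alternatives: it was 0.01 as a mean, and 0.11 both as a ratio of summed signal and with empty windows set to 3 fragments. Of the 80, 11 were called higher at 60 min (13.8%, against 7.05%) and 4 lower (5%, against 8.03%). By the interval rule, COX6C and NDUFA1, a membrane-anchored subunit of complex I, were higher (2.5%, against 1.29%), and none was lower (against 1.83%).

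The +1 nucleosome (50 to 250 bp) moved less. The members' median level, 0.01 before HKST, was 0.34 at 40 min and 0.19 at 60 min, while that of all promoters was -0.21, -0.12 and -0.19. The change had a median of 0.24 at 40 min (48 of 72 above 0) and 0.23 at 60 min (48 of 74), against 0.10 and 0.02 over all promoters. Complex I had the largest +1 medians among the complexes at both times (0.45 and 0.36), and complex IV had -0.12 and 0.00 (0.09 and 0.31 without the isoforms of other tissues). NDUFS5 was among the promoters with a higher +1 level at each time, with 5.44, 7.23, 6.73 and 6.03 rpm light and 4.12, 2.71, 3.10 and 3.13 rpm heavy (changes 0.99, 0.70 and 0.53). At UQCRH the +1 changes were -0.35, -0.21 and 0.04. After the value of the whole 2 kb was subtracted from each promoter, the -1 change of the members was 0.39 at 40 min and 0.35 at 60 min, against 0.10 and 0.08 over all promoters, and the NFR depth hardly moved (-0.03 and -0.15, against -0.00 and -0.02).

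**Figure D5:**
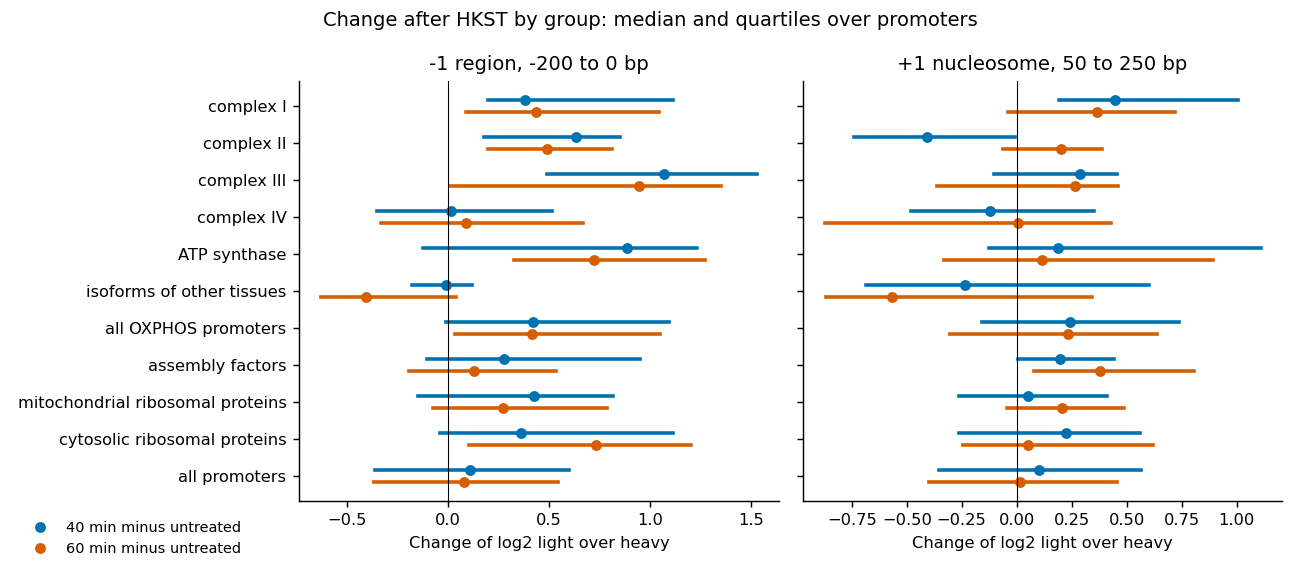
Median (point) and quartiles (bar) over promoters of the change in log2 light over heavy against untreated cells, at 40 min (blue) and 60 min (orange), for the -1 region (left) and the +1 nucleosome (right). Among the complexes in the -1 region, complex III and ATP synthase have the highest medians (0.72 to 1.07) and complex IV lies near 0, with the isoforms of other tissues below it.

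Members with and without an NRF1 match differed in the -1 change at 40 min, with medians of 1.16 (n = 16) and 0.31 (n = 57), and less at 60 min, with 0.63 and 0.41. Over all promoters the medians with and without a match were 0.23 and 0.10 at 40 min and 0.27 and 0.07 at 60 min. The untreated level, which the change subtracts, had a median of 0.19 in members with a match (n = 16) and 0.52 without (n = 55). Over all promoters those untreated levels were 0.34 and 0.10, the other way round. These splits overlap: the quartiles of the members at 40 min were 0.43 and 1.40 with a match and -0.03 and 0.88 without. Members with a match also had a deeper NFR (-2.91, against -2.22), as did all promoters with a match (-3.13, against -1.68). For ETS/GABP the members' medians were 0.50 with a match and 0.41 without at 40 min, and 0.40 and 0.42 at 60 min. Members with a head-to-head TSS (n = 16) had a median change of 0.66 at 40 min, against 0.36 without (n = 57). At 60 min these medians were 0.41 and 0.41. Over all promoters they were 0.26 and 0.10 at 40 min, and 0.28 and 0.06 at 60 min. Between GC content and the change at 40 min, Pearson's r over the members was 0.01. These splits were not tested.

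Other genes of the same organelle and of protein synthesis give a scale for these values. Assembly factors of the respiratory complexes had a median -1 change of 0.28 at 40 min and 0.13 at 60 min (n = 26), with 6 (23.1%, against 12.4% of all promoters) and 2 (7.69%, against 10.4%) called higher. Mitochondrial ribosomal proteins had 0.42 and 0.27 (11 of 70, 15.7%, and 11 of 72, 15.3%, called higher), and cytosolic ribosomal proteins 0.36 and 0.73 (22 of 73, 30.1%, and 27 of 73, 37%). The 9 genes of mitochondrial DNA expression with untreated data had medians of 0.21 and 0.28, with TFB2M, a mitochondrial transcription factor, at 1.43 and 1.11 and POLRMT, the mitochondrial RNA polymerase, at -1.16 and -0.00. The level in untreated cells was 0.40 for assembly factors, 0.74 for mitochondrial and 0.58 for cytosolic ribosomal proteins, so that a sensitive -1 region before HKST was not particular to the OXPHOS genes. Nor was the rise after HKST. The ribosomal protein changes above stand beside medians of 0.42 at 40 min and 0.41 at 60 min for the OXPHOS promoters. The difference between these lists was not tested. NFR depth in untreated cells ran from -4.91 (NDUFAF6) to 0.97 (COX15) at assembly factors. At genes of mitochondrial DNA expression it ran from -3.97 (POLRMT) to -1.58 (MTERF), so deep NFRs were found in these lists too. Among regulators of mitochondrial genes, NRF1 had changes of 0.42 and 0.31 and GABPA of 0.82 and 0.60; the 2 kb of GABPA overlaps that of the member ATP5J, the coupling factor 6 subunit of ATP synthase.

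Of the 84 members, 11 have no change value: 8 lie past the end of the untreated heavy table as received (COX7B, NDUFA1, UQCRBP1, NDUFS1, ATP5J2-PTCD1, NDUFB2-AS1, NDUFC2-KCTD14 and UQCRB), and ATP5EP2, ATP5H and ATP5I had no fragment or too few measured positions in the -1 region. The other 73 are all in the counts given for 40 and 60 min.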

How the data were processed

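GM12878 nuclei (16 samples, 2 replicates per time and digestion) were analysed as 8 tables. The authors removed adapters, mapped read pairs to hg19, dropped pairs without a unique position, counted fragment centers and scaled them to depth; the submitters' notes list Bowtie2 2.2.2, SAMtools and bedtools. The values the authors deposited are rpm per 10 bp bin of the pooled replicates. Partial last lines were left out.

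Values rise in steps worth 0.5 fragment, and 100% lay within 0.05 of a whole step, which gave fragment counts. A window needed measured values in 0.5 or more of its bins and 1 or more fragments over the tables compared. The pseudocount was 0.1 of the mean value. Single promoters were compared by exact conditional 95% intervals of the ratio of ratios. Methods were tested on simulated fragments. Python 3.11.15, numpy 2.4.6, scipy 1.17.1, pandas 2.3.3 and matplotlib 3.10.9 were used.

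Members, lists and rules were chosen with earlier results of these data known. 1 member that the rule names is counted but not reported by name here, and 1 promoter sequence is not reported here. Named members are those complete in all 8 tables, those whose interval excludes 0 at 40 or 60 min, the 4 largest rises and falls at each of those times and the 3 most and least sensitive in untreated cells (at least 20 fragments), complex II and the isoforms of other tissues. Members named beyond that rule (COX7B2's and NDUFS7's absent dip, NDUFA1, close gene pairs, members without a value) and single genes of the other lists were chosen after their values were seen. Motifs were counted in GRCh37 sequence at the deposited TSS in place of the planned RefSeq promoter table; in that table, where 67 of 84 symbols matched, NRF1 matches were in 22.4% of members, against 6.28% of all promoters, and SP1 matches in 55.2%, against 44.6%. Of the members' TSSs, 75% lay within 50 bp of a GENCODE release 44 transcript start, against 79.9% of all promoters. The submitted label of every sample gave its time and digestion.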

Additional observations from a re-analysis of the deposited data

How the results depend on the processing

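Of the results on medians and counts, 120 values under the alternatives were classed as the same as the main value and 22 as moved. No called direction turned. For medians the range allowed was an inner range of the ranked member promoters. For the 20 min change it ran from 0.05 (SDHB) to 1.07 (NDUFS5), while the members ran from -0.11 (UQCRH) to 1.45 (ATP5C1). Those promoters share the same pooled tables, so that range measures no error between replicates. Such a range is wide: the values of the 60 min minus 40 min change that turned its sign (0.01, 0.11 and 0.11, against -0.11) were classed as the same. Counts had no such range. The -1 change ran from 0.42 to 0.72 at 20 min, from 0.21 to 0.54 at 40 min and from 0.29 to 0.53 at 60 min. At 40 min it moved to 0.21 with a pseudocount of 0.5 of the mean value and to 0.21 with empty windows set to 3 fragments, and the +1 change at 40 min to 0.14 with the median of all promoters set to 0. NFR depth moved to -1.60 with a pseudocount of 0.5 of the mean value, -0.49 with the all-promoter median set to 0, -0.84 with at least 20 fragments, -1.85 as a ratio of sums and -1.78 from -150 to 0 bp. With the pseudocount of 0.5 of the mean, members called higher numbered 0 at 20 min (against 0.965%), 3 at 40 min (4.11%, against 0.989% of all promoters) and 2 at 60 min (2.74%, against 0.563%). Called lower were 1 at 40 min (1.37%, against 0.727%) and 0 at 60 min (against 0.329%). With 0.05 of the mean, 5 were lower at 40 min and 4 at 60 min, counts that have no share over all promoters beside them and cannot be read alone. At 20 min 1 was called higher with the all-promoter median at 0 (11.1%, against 9.34%), with at least 20 fragments (12.5%, against 12%), and from -300 to -100 bp (12.5%, against 10.7%). At 40 min 13 were higher (27.7%, against 11%) and 1 lower (2.13%, against 5.93%) with at least 20 fragments, and 13 higher from -300 to -100 bp (17.8%, against 11.7%). At 60 min 1 of 63 was lower (against 4.57% of all promoters) without ATP5S, ATP5SL, COX7A2L, the isoforms of other tissues and the readthrough genes. The causes of these moves were not tested. Windows with any measured position, the subtraction of the 2 kb value and empty windows set to 3 fragments were added after seeing the data. No paired analysis was possible because each table pools its replicates, and for the same reason no replicate could be left out. Depth limits single promoters most at 40 min, where the heavy table has 3.27 M fragments.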
